A study of Homo sapiens with 346 samples.

Results

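A set of 10 genes of epithelial cell adhesion was followed in single cells that were sequenced live or after methanol fixation: PKP2, PKP3, PKP4, DSP, JUP, DSG2, DSC2, PERP, CDH1 and EPCAM. These 10 genes were chosen by name from the 31463 gene names that the deposited tables of both lines list together (28806 for HCT-116, 29551 for HepG2). Each was found in both tables. They were selected with their levels, their shares of cells and their loss in fixed cells already known from the same tables, so those values are descriptions and none is tested. HCT-116 is a human colon carcinoma line, and the other line is labelled HepG2, a human liver carcinoma line. Cells of both lines grew in the same serum-containing medium. One group of each line was sequenced live, and the other was fixed in 80% methanol, kept frozen for 1 week and then sequenced, all with Smart-seq2, which copies polyadenylated RNA over its full length. Per the study's methods, live and fixed cells of an experiment came from a split suspension. Live cells were stained with propidium iodide before sorting, and fixed cells were rehydrated and washed in buffer with albumin and an RNase inhibitor, so these steps also differ between the groups. The tables hold 91 live and 92 fixed HCT-116 cells and 68 live and 83 fixed HepG2 cells. No culture is named for a cell, so each group is 1 sample, the spread given is that between cells (SD), and no test between groups was run. Per the study's methods, HepG2 cells came from 2 experiments, which the labels do not tell apart, and HCT-116 cells from 1. Fixed cells were made into libraries only after storage, so fixation, storage and library batch cannot be told apart.

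Desmosomes and adherens junctions hold neighbouring epithelial cells together. In a desmosome, the cadherins DSG2 and DSC2 cross the membrane and bind the armadillo proteins plakoglobin (JUP) and plakophilin (PKP2, PKP3), which hand over to desmoplakin (DSP), the anchor of keratin filaments. PERP is a membrane protein needed for desmosome assembly. E-cadherin (CDH1) is the main cadherin of the epithelial adherens junction, PKP4 (p0071) is a relative of p120-catenin found in both kinds of junction, and EPCAM is a surface adhesion molecule of epithelia.

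Live HCT-116 cells had a median of 2.5 M reads (range 0.7 to 5.3 M) and fixed ones 1.8 M (0.2 to 4.9 M). For HepG2 the medians were 2.4 M live (1.5 to 3.7 M) and 2 M fixed (1 to 2.8 M). The number of genes with TPM (transcript abundance corrected for length and scaled to a fixed total per cell) above 0 was 12029 ± 919 (SD) among live and 10506 ± 1337 among fixed HCT-116 cells. In HepG2 it was 13858 ± 1142 among live and 12118 ± 1691 among fixed cells. The ribosomal RNA gene RNA18S5 took 25.5% ± 4.82 of all TPM among live against 7.65% ± 2.10 among fixed HCT-116 cells, and 5.51% ± 1.71 against 2.26% ± 0.831 in HepG2 cells. TPM sums to a fixed total, so this share bears on every TPM, and its part in the ratios below was checked by leaving ribosomal RNA out.

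The labelled lines were checked against marker genes. In the cells labelled HepG2, 6 of 12 hepatocyte markers were listed, with a summed mean of 2.48 TPM among live and 4.08 TPM among fixed cells, and SERPINA1 was the most abundant of them at 2.27 ± 6.06 TPM in live cells. ALB, AFP, APOB, APOA2, APOH and FGA had no row in that table. All 8 markers of luminal breast epithelium were listed, with a summed mean of 22447 TPM in live cells, of which KRT8 took 11421 ± 5485 TPM, a keratin that hepatocytes also express. GATA3 reached 216 TPM and ESR1 47.7 TPM in live cells. The hepatocyte markers thus go against the label, and HepG2 below means only the cells that carry it. In HCT-116, 4 of 8 intestinal markers were listed, with a summed mean of 10.1 TPM in live cells, led by CDX2 at 7.47 ± 5.83 TPM. KRT20 had 2.54 ± 17.8 TPM, CDH17 0.0619 TPM and GPA33 0 TPM there. CDX1, VIL1, LGALS4 and FABP1 had no row, so most of this list was absent or low. Of the 8 luminal markers, 7 were listed in HCT-116, at a summed mean of 4321 TPM in live cells. Nearly all of it was KRT8, KRT18 and KRT19, with ESR1 at 0.925 TPM and GATA3 at 0.278 TPM. Markers of mesenchyme, cardiac muscle and blood were low. Their summed means in live HCT-116 and live HepG2 cells were 8.01 and 5.09 TPM for mesenchyme (most abundant VIM and FN1), 0.709 and 0.270 TPM for cardiac muscle (NPPA), and 0.322 and 2.02 TPM for blood (LYZ and HBB). The sums in fixed cells were 6.38 and 4.01, 0.643 and 0.250, and 1.05 and 0.852 TPM. The list for squamous and basal epithelium, at 17.4 and 12.5 TPM live and 15.996 and 19.1 TPM fixed, was almost all KRT10.

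One live and one fixed HepG2 column held the same value for all 29551 genes, which goes against one of the labels. This column was the lowest live HepG2 cell for PKP3, DSP, JUP, DSG2 and CDH1, and lowest levels, counts of cells beyond a limit set by 1 cell, and correlations are given below with and without it. A further 6 fixed HepG2 columns were very similar to one another (Pearson r of 0.956 to 0.973 between pairs), and leaving them out put the log2 ratio of PKP3 given below at -3.34.

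PKP3, plakophilin-3, lies at chr11:392596-404908 (GRCh38, RefSeq). It stood apart from the other 9 genes by its loss in fixed cells. In HCT-116 its level was 30.02 ± 18.7 TPM over 91 live cells and 2.95 ± 3.90 TPM over 92 fixed cells, a 10.2-fold lower mean (log2 ratio -3.35). In HepG2 it was 42.2 ± 21.6 TPM over 68 live cells and 3.96 ± 5.11 TPM over 83 fixed cells, a 10.7-fold lower mean (log2 ratio -3.42). PKP3 was present in every live cell of both lines but was listed at 0 in a large part of the fixed cells.

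Over single cells, live HCT-116 cells had a lowest, median and highest PKP3 level of 2.44, 27.3 and 96.8 TPM, against 0, 0.924 and 16.5 TPM among fixed cells. Of the 92 fixed HCT-116 cells, 52 lay below the lowest live cell and all 92 below the live median, while 22 of 91 live cells lay below the highest fixed cell, so the groups overlapped in part. Live HepG2 cells had 0.161, 42.7 and 92.96 TPM, against 0, 1.88 and 24.3 TPM among fixed cells. All 83 fixed HepG2 cells were below the live median, and 19 were below the lowest live cell. That lowest live cell is the column shared with the fixed cells. Without it the lowest live HepG2 cell had 8.58 TPM, 73 of 82 fixed cells lay below it, and the log2 ratio stayed at -3.42. Above 10 TPM there were 82 live and 6 fixed HCT-116 cells, and 65 live and 6 fixed HepG2 cells.

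**Figure D1:**
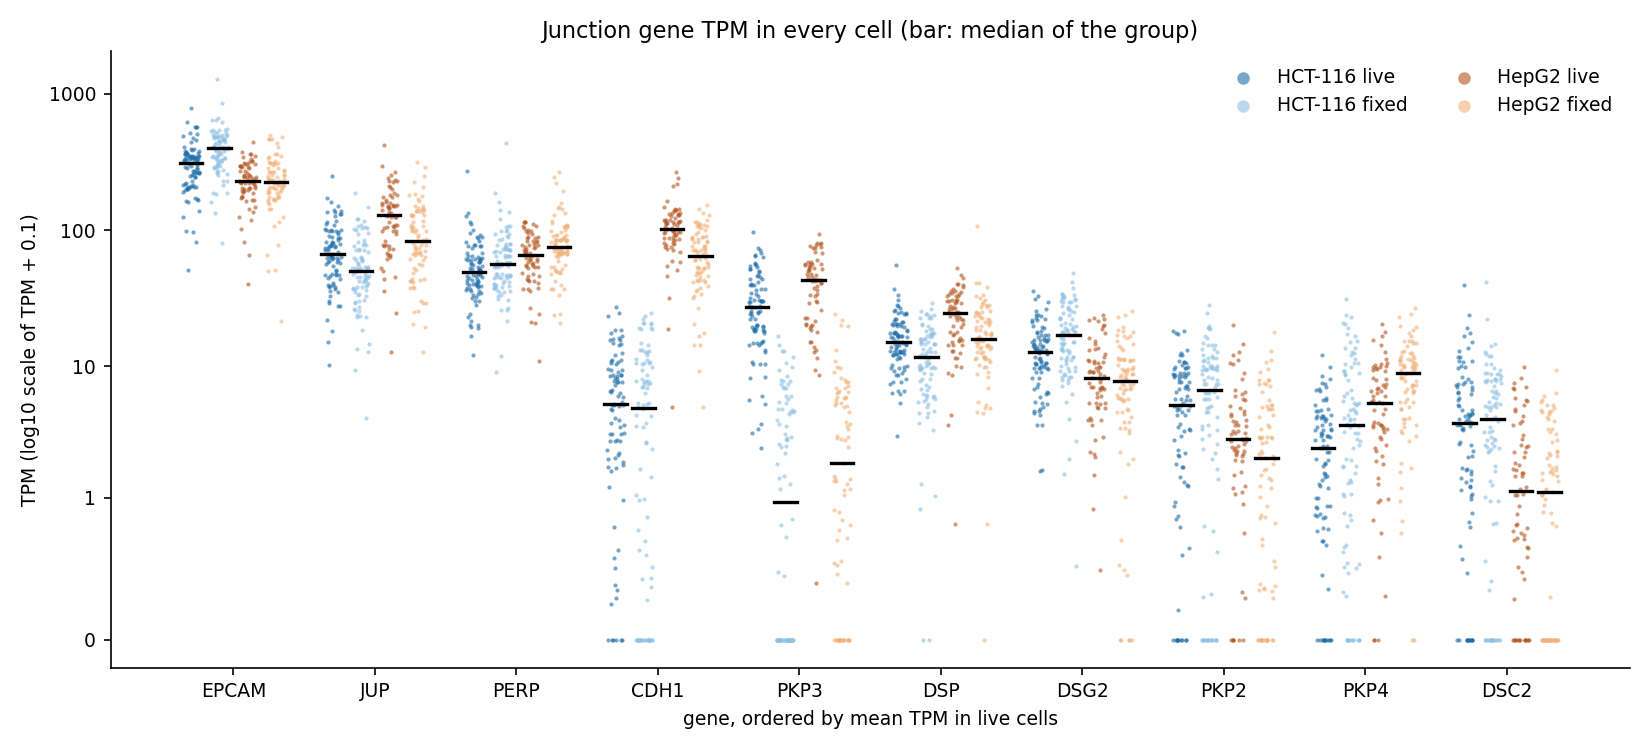
Level of each gene in every cell, as TPM on a log10 scale of TPM + 0.1, with genes ordered by mean TPM in live cells. Points are cells, colours are the 4 groups and black bars are group medians. The median of PKP3 is 27.3 TPM live and 0.924 TPM fixed for HCT-116, and 42.7 and 1.88 TPM for HepG2, while CDH1 separates the lines.

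Over genes with a mean of at least 1 TPM across both treatments, 8.84% of 11813 genes in HCT-116 and 9.76% of 12486 in HepG2 were at least 2-fold lower in fixed cells, and 2.99% and 4.89% were at least 2-fold higher. Only PKP3 of the 10 junction genes was at least 2-fold lower in either line. Its ratio was below that of all but 0.576% of the genes in HCT-116 (68 genes lower) and 0.721% in HepG2 (90 genes lower). Of 10443 genes over that floor in both lines, 13 were at least 8-fold lower in both. Since PKP3 was chosen with this loss known, these places are descriptions.

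**Figure D2:**
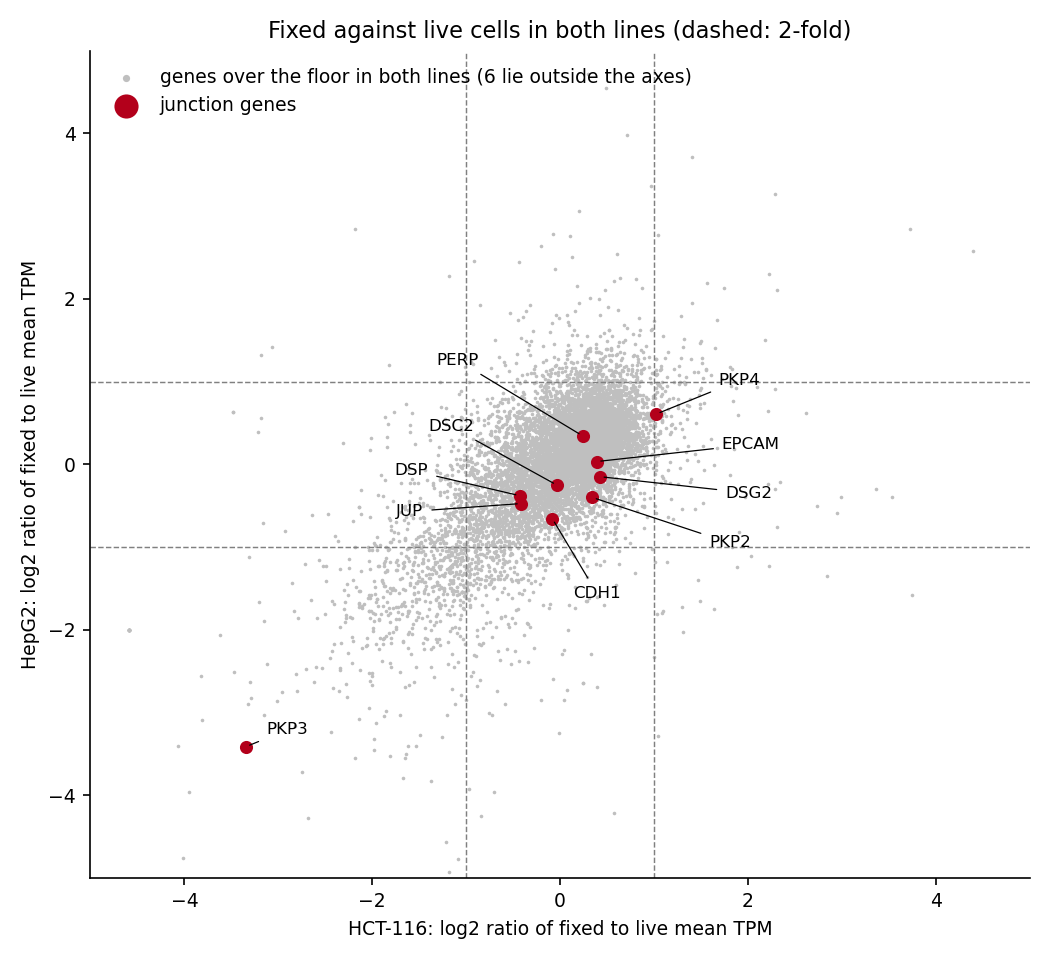
Log2 ratio of fixed to live mean TPM in HCT-116 (x axis) and HepG2 (y axis) for 10386 genes over the floor in both lines (grey), with the 10 junction genes among them in red and with dashed lines at 2-fold. Of the 10443 genes, 6 lie outside the axes and 51 have no finite ratio, being listed at 0 throughout a group. PKP3 lies at -3.35 and -3.42, and the other 9 genes lie within about 2-fold of no change.

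The reads behind PKP3 were many in live cells and few in fixed cells. An estimated 13903 reads came from PKP3 over all live HCT-116 cells and 1399 over all fixed ones, and the median fixed cell had 3. For HepG2 the sums were 16980 and 1509 reads, with 249 in the median live and 9 in the median fixed cell. Against all reads of the group, that is 60.6 CPM (counts scaled to total reads, exact Poisson interval 59.6 to 61.6) live and 7.35 CPM (6.97 to 7.74) fixed for HCT-116. HepG2 had 103.7 CPM (102.2 to 105.3) live and 9.54 CPM (9.07 to 10.04) fixed. Intervals on reads and on shares of cells are at 95% and cover counting error only.

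The share of cells with PKP3 above 0 TPM went from 100% (91 of 91, Clopper-Pearson interval 96.03 to 100%) to 55.4% (51 of 92, 44.7 to 65.8%) in HCT-116. In HepG2 it went from 100% (68 of 68, 94.7 to 100%) to 77.1% (64 of 83, 66.6 to 85.6%). After thinning every cell to 500000 reads, with 3 shallower fixed HCT-116 cells left out, PKP3 was left in 100% of live and 53.9% of fixed HCT-116 cells, and for HepG2 in 98.5% and 63.9%. Fixed cells with at least 1 estimated PKP3 read were deeper than those without: the median was 2.25 M against 1.5 M reads in HCT-116 (50 and 42 cells), and 2 M against 1.8 M in HepG2 (62 and 21 cells). They also had more genes detected, a median of 11044 against 10002 in HCT-116 and 12487 against 10245 in HepG2. The part of depth in whether a fixed cell had PKP3 was not tested beyond the thinning.

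**Figure D3:**
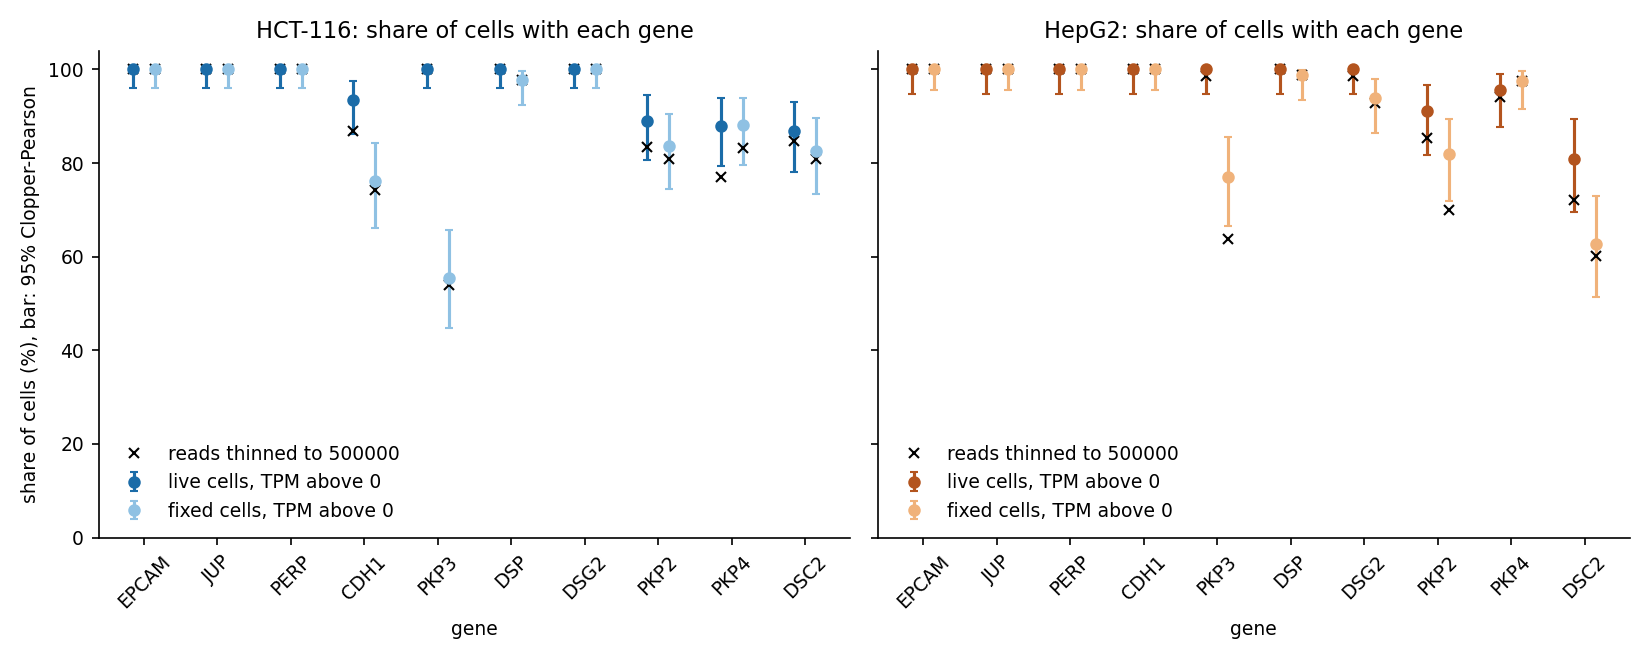
Share of cells (%) with each gene above 0 TPM among live and fixed cells of both lines, with 95% Clopper-Pearson intervals, and the share after thinning to 500000 reads (crosses). PKP3 is at 55.4% of fixed HCT-116 and 77.1% of fixed HepG2 cells, while JUP, PERP and EPCAM stay at 100%.

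Both PKP3 transcripts in the transcript tables were lower in fixed cells, but unequally. Levels there are CPM, not divided by length. NM_007183.3, the main one, had 56.2 ± 37.3 CPM among live and 4.01 ± 7.75 CPM among fixed HCT-116 cells, 14.02-fold lower. In HepG2 it had 97.9 ± 49.2 and 6.18 ± 12.1 CPM, 15.8-fold lower. NM_001303029.1 had 4.74 ± 9.83 and 2.52 ± 5.71 CPM in HCT-116, 1.88-fold lower, and 4.17 ± 6.78 and 2.99 ± 5.35 CPM in HepG2, 1.39-fold lower. Its share of the mean CPM of PKP3 was 7.79% among live and 38.6% among fixed HCT-116 cells, and 4.09% and 32.6% in HepG2. At least 1 read was assigned to NM_007183.3 in 85 of 91 live and 24 of 92 fixed HCT-116 cells, and to NM_001303029.1 in 27 and 28. In HepG2 the cells numbered 66 of 68 and 26 of 83 for NM_007183.3, and 21 and 34 for NM_001303029.1. The transcripts share most of their bases, so the split of a few reads between them is an estimate.

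The mean levels of the other plakophilins were within 2-fold between treatments or higher in fixed cells. PKP2, the plakophilin of heart and simple epithelia, had 5.68 ± 4.52 TPM among live and 7.21 ± 6.05 TPM among fixed HCT-116 cells (log2 ratio 0.34), and 3.97 ± 3.79 and 3.01 ± 3.49 TPM in HepG2 (log2 ratio -0.40). Its highest cell had 28.1 TPM, and the groups overlapped over nearly their whole range. PKP2 was above 0 in 89.01% of live and 83.7% of fixed HCT-116 cells, and in 91.2% and 81.9% of HepG2 cells. The HepG2 shares lay further apart above 1 TPM (85.3% and 62.7%) and after thinning (85.3% and 69.9%). PKP4 was the only one of the 10 at least 2-fold higher in fixed cells, and only in HCT-116: 2.78 ± 2.49 TPM among live and 5.66 ± 6.49 TPM among fixed cells (log2 ratio 1.02), where 2.99% of genes were as much higher. The lowest, median and highest live HCT-116 cells had 0, 2.43 and 12.02 TPM of PKP4, and the fixed cells 0, 3.65 and 31.2 TPM, so medians differed less than means. The ratio fell under 2-fold with ribosomal RNA left out (0.71) and under 4 other settings. In HepG2, PKP4 had 5.89 ± 4.54 and 8.97 ± 5.59 TPM (log2 ratio 0.61). PKP4 was above 0 in 87.9% of live and 88.04% of fixed HCT-116 cells, and in 95.6% and 97.6% of HepG2 cells.

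Desmoplakin and plakoglobin were somewhat lower in fixed cells of both lines, by less than the spread between cells. DSP had 16.3 ± 7.72 TPM among live and 12.1 ± 6.57 TPM among fixed HCT-116 cells (log2 ratio -0.43), and 24.1 ± 10.9 and 18.5 ± 13.2 TPM in HepG2 (-0.38). JUP had 74.6 ± 38.9 and 56.1 ± 31.5 TPM in HCT-116 (-0.41), and 135.2 ± 71.3 and 97.3 ± 59.4 TPM in HepG2 (-0.47). In HCT-116 the lowest, median and highest JUP levels were 10.3, 66.8 and 248 TPM live and 4.08, 50.1 and 185.5 TPM fixed, and in HepG2 they were 12.8, 128.4 and 418 TPM live and 12.8, 83.1 and 317 TPM fixed. Without the shared column the lowest HepG2 cells had 24.8 TPM live and 19.3 TPM fixed. The groups overlapped almost fully, with 72.8% of fixed HCT-116 and 73.5% of fixed HepG2 cells below the live median of JUP. JUP was found in every cell of all 4 groups and DSP in all but 2 fixed HCT-116 cells and 1 fixed HepG2 cell.

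The main listed transcripts of DSP had ratios of opposite sign. DSP encodes a long and a short form that differ in the length of the central rod, and the splice that sets them apart is shown because the balance of transcripts differed between treatments. The bases are coding, 5′ to 3′ on the plus strand of chromosome 6 (GRCh38, GENCODE release 44), and capitals mark the bases after the position at which the forms part, from 7579773 on in the long form.
DSP long form: aatgagctggcaaagGTAAGAAACCACTAT
DSP short form: aatgagctggcaaagGCATCTAATAGGATT
The short form lacks 1797 of the 8613 coding bases of the long form. NM_001008844.2 had 74.5 ± 39.7 CPM among live and 49.7 ± 44.5 CPM among fixed HCT-116 cells, and 125.8 ± 72.1 and 55.3 ± 56.7 CPM in HepG2. NM_004415.3 had 24.1 ± 27.4 and 31.5 ± 39.4 CPM in HCT-116, and 51.1 ± 38.3 and 78.6 ± 68.4 CPM in HepG2. The minor NM_001319034.1 had 3.30 and 4.28 CPM in HCT-116 and 3.60 and 8.50 CPM in HepG2. NM_001008844.2 is the RefSeq record of the short form and NM_004415.3 that of the long form. The share of NM_001008844.2 in the mean CPM of DSP was 73.1% among live and 58.1% among fixed HCT-116 cells, and 69.7% and 38.8% in HepG2. As for PKP3, reads that fit several transcripts were divided by estimate.

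**Figure D4:**
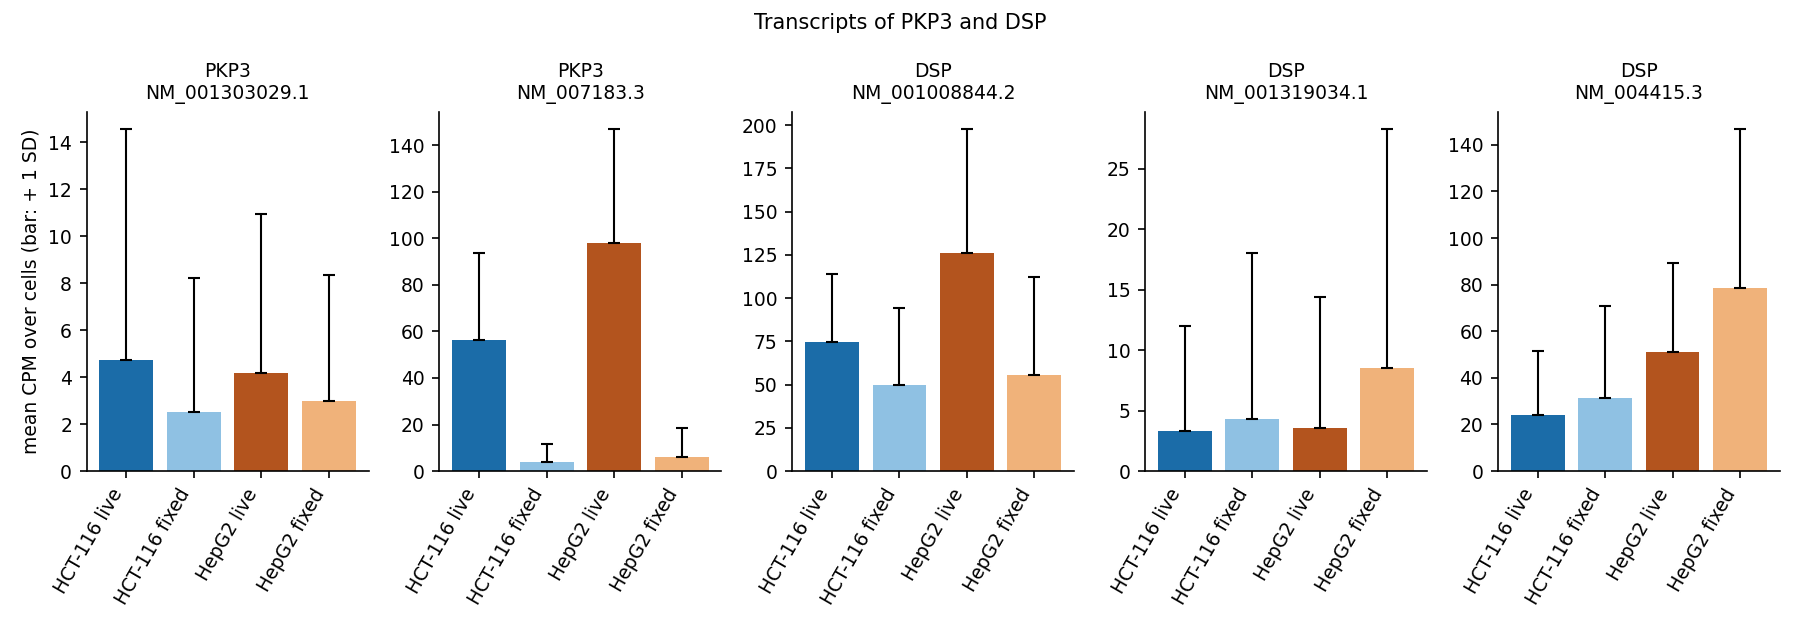
Mean CPM over cells of each listed PKP3 and DSP transcript in the 4 groups, with bars of + 1 SD over cells and an axis of its own for each transcript. NM_007183.3 of PKP3 goes from 56.2 to 4.01 CPM in HCT-116 and from 97.9 to 6.18 CPM in HepG2, and NM_004415.3 of DSP from 51.1 to 78.6 CPM in HepG2.

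The desmosomal cadherins and PERP differed less than 2-fold between treatments. DSG2 had 13.4 ± 7.04 TPM among live and 17.9 ± 9.67 TPM among fixed HCT-116 cells (log2 ratio 0.42), and 9.28 ± 5.77 and 8.36 ± 5.78 TPM in HepG2 (-0.15). DSC2 had 5.21 ± 6.05 and 5.10 ± 5.70 TPM in HCT-116 (-0.03), and 2.06 ± 2.39 and 1.73 ± 2.01 TPM in HepG2 (-0.25). DSC2 was above 0 TPM in 86.8% of live HCT-116 (79 of 91) and 80.9% of live HepG2 cells (55 of 68). In fixed cells it was above 0 TPM in 82.6% (76 of 92) and 62.7% (52 of 83). The HepG2 intervals were 69.5 to 89.4% live and 51.3 to 73.03% fixed, and the shares were 54.4% and 54.2% above 1 TPM and 72.1% and 60.2% after thinning. The log2 ratio of DSC2 changed sign under some alternatives, which spanned -0.34 to 0.18 in HCT-116 and -0.48 to 0.03 in HepG2. PERP had 56.1 ± 33.1 and 66.2 ± 49.4 TPM in HCT-116 (0.24), and 66.8 ± 25.01 and 84.7 ± 43.6 TPM in HepG2 (0.34), and was found in every cell.

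E-cadherin differed more between the lines than between the treatments. CDH1 had 6.83 ± 6.07 TPM in live HCT-116 and 106.9 ± 44.4 TPM in live HepG2 cells, 15.7-fold higher in HepG2. In fixed cells it had 6.44 ± 6.91 and 67.9 ± 32.2 TPM, 10.5-fold higher. The lowest, median and highest live cells had 0, 5.24 and 27.2 TPM in HCT-116 and 4.98, 102.05 and 267 TPM in HepG2. There, 2 of 68 live and 7 of 83 fixed HepG2 cells lay below the highest HCT-116 cell of the same treatment. Without the shared column these were 1 of 67 and 6 of 82 cells, and the lowest live HepG2 cell had 18.8 TPM. Against live cells, fixed cells had a log2 ratio of -0.08 in HCT-116, which was -0.89 as a difference of mean log2(TPM + 0.1) and 0.13 after thinning, so its direction is not settled. In HepG2 the ratio was -0.66, and 81.9% of fixed cells lay below the live median. CDH1 was above 0 in 93.4% of live (85 of 91, 86.2 to 97.5%) and 76.1% of fixed HCT-116 cells (70 of 92, 66.1 to 84.4%), intervals that cover counting error among cells only. After thinning, these shares were 86.8% (78.1 to 92.997%) and 74.2% (63.8 to 82.9%). All HepG2 cells had CDH1 above 0.

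EPCAM was the most abundant of the 10 genes in all 4 groups, at 306 ± 121.8 TPM among live and 402 ± 155.1 TPM among fixed HCT-116 cells (log2 ratio 0.39), and 234 ± 76.8 and 239 ± 97.2 TPM in HepG2 (0.03). Its lowest cell in any group had 21.6 TPM. Behind it came JUP and PERP in both treatments of HCT-116 and in fixed HepG2 cells, while CDH1 stood between JUP and PERP in live HepG2 cells. PKP3 was the fourth of the 10 in live HCT-116 cells and the last in fixed ones, and the fifth and the eighth in HepG2. EPCAM stood above the next gene by more than either SD in all 4 groups, as did JUP above DSG2 among fixed HCT-116, DSP above DSG2 in live HepG2 and CDH1 above DSP among fixed HepG2 cells. All other neighbours in these orders differed by less than the larger SD. Between lines, 2 genes were at least 2-fold higher in live HepG2 than in live HCT-116 cells, CDH1 and PKP4 (2.11-fold), where 22% of 12481 genes were, and DSC2 was 2.53-fold lower, where 18.7% were. In fixed cells only CDH1 was higher (22% of 12232 genes), and DSC2 (2.95-fold), PKP2 (2.40-fold) and DSG2 (2.14-fold) were lower (18%). PKP3 differed 1.41-fold between the lines among live and 1.34-fold in fixed cells. Apart from CDH1, cells of the lines overlapped over most of their range for each gene.

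Median log2 ratios of fixed to live over the 10 genes were 0.10 in HCT-116 and -0.32 in HepG2, beside 0.17 and 0.15 over all genes tested. Leaving out ribosomal RNA moved the median of all genes to -0.15 in HCT-116 and -0.03 in HepG2. PERP in HCT-116 (-0.07) and EPCAM in HepG2 (-0.14) then changed sign, so their small differences have no settled direction, and EPCAM also did so with median ratio scaling (-0.13). PKP3 lay at -3.68 and -3.58 with ribosomal RNA left out.

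Reference transcripts show what else the genes share or do not share. PKP3 had a GC content of 66.7%, higher than that of 98.5% of the genes tested in HCT-116 and 98.8% in HepG2 (values were found for 89.1% and 87.03% of those genes). Its length of 2817 bases was near the middle, with 47.9% and 46.98% of genes shorter. Genes in the highest GC quintile had a median log2 ratio of -0.49 in HCT-116 and -0.26 in HepG2, against 0.35 and 0.29 in the lowest quintile. Of 2104 genes in that highest quintile in HCT-116, 27 were lower than PKP3, against 4, 2, 5 and 14 in the other quintiles from the lowest GC up. In HepG2 such genes were spread more evenly, with 19 of 2174 in the highest quintile and 13, 10, 16 and 17 in the others. JUP was next of the 10 at 61.5% GC, also in the highest quintile, with log2 ratios of -0.41 and -0.47. The other 8 lay between 38.95% (DSC2) and 49.3% (PKP4). DSP, 9697 bases long, and EPCAM, 1547 bases long, were both under 2-fold apart between treatments. GC content thus moved with the loss over all genes, and its part in the loss of PKP3 was not tested.

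**Figure D5:**
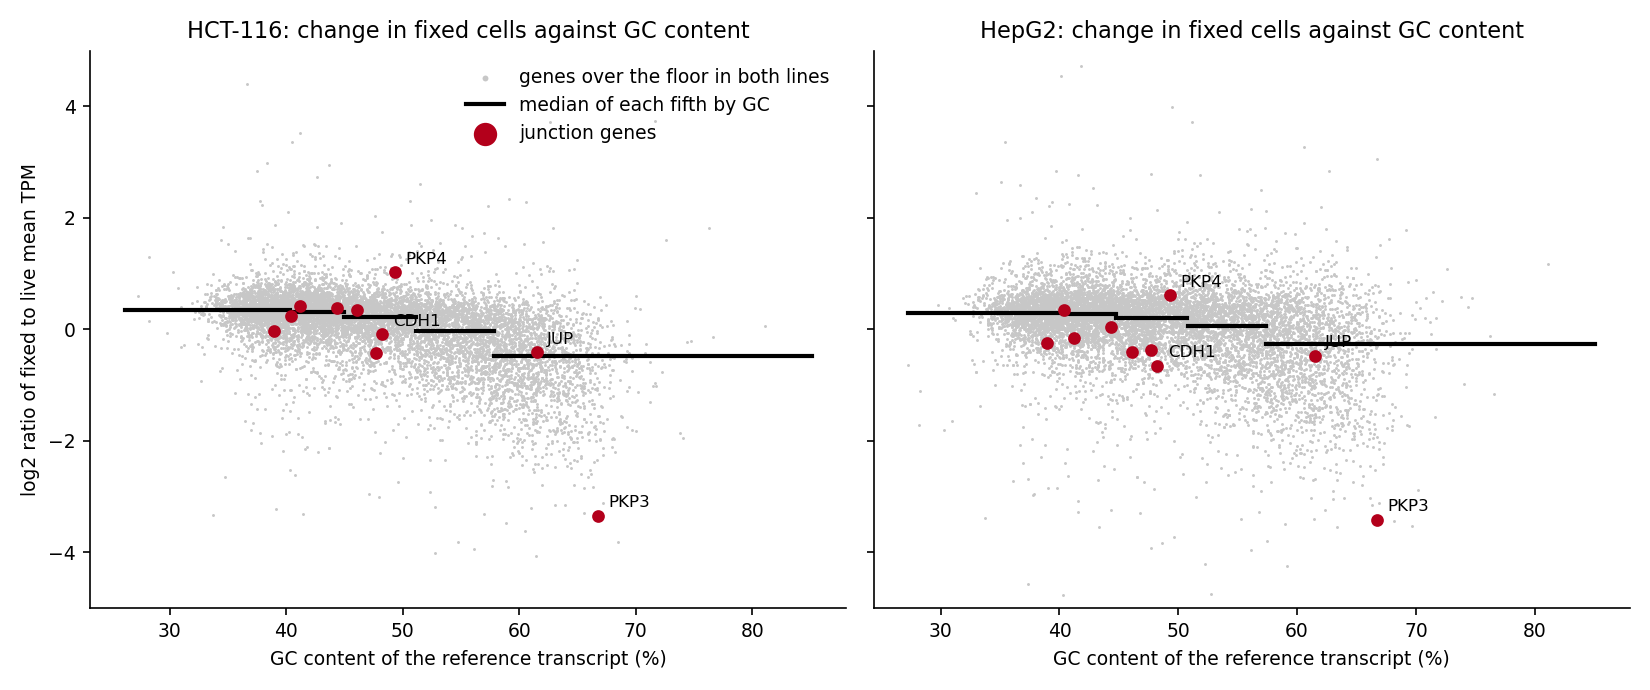
Log2 ratio of fixed to live mean TPM against GC content (%) of the reference transcript for genes over the floor in both lines (grey), with the median of each GC quintile (black) and the 10 junction genes (red). PKP3 at 66.7% GC lies at -3.35 and -3.42, far under the medians of the highest quintile, -0.49 and -0.26, while JUP at 61.5% lies at -0.41 and -0.47.

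From cell to cell, the adhesion genes varied together only weakly. Over the 45 pairs, the median Pearson r of log2(TPM + 1) was 0.15 among live and 0.04 among fixed HCT-116 cells, and 0.28 among live and 0.16 among fixed HepG2 cells. JUP and CDH1 had the highest r on average over the groups: 0.58 over 91 live and 0.29 over 92 fixed HCT-116 cells, and 0.63 over 68 live and 0.56 over 83 fixed HepG2 cells. The r of JUP with total reads was 0.07, 0.04, 0.50 and 0.20 in the same order, and that of CDH1 was 0.16, 0.05, 0.37 and 0.21. PKP3 and JUP had an r of 0.52 among live and 0.33 among fixed HepG2 cells but 0.16 and -0.06 in HCT-116 cells. In live HepG2 cells PKP3 itself had an r of 0.50 with the number of genes detected. Cells of an HCT-116 group come from 1 experiment, while HepG2 cells may span 2, so differences between experiments can enter the HepG2 values of r. Part of the HepG2 values rested on the column present in both groups. Without it, the median r over the 45 pairs was 0.21 live and 0.11 fixed, JUP and CDH1 had 0.49 over 67 live and 0.49 over 82 fixed cells, and PKP3 and JUP had 0.35 and 0.31. The r of PKP3 with the number of genes detected in live HepG2 cells was then 0.34, and those of JUP and CDH1 with total reads were 0.44 and 0.28 in live and 0.17 and 0.18 in fixed cells.

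The 5 genes whose pattern over all cells was most like that of PKP3, among 4302 genes with at least 10 TPM in live cells of both lines, were ARFGAP1, DDX54, LMNA, IER2 and PLXNB2. They were ranked by the lower of the 2 Pearson r with PKP3, over all cells of each line. ARFGAP1, a GTPase-activating protein that acts on ARF1, had r of 0.66 and 0.66, and the RNA helicase DDX54 0.64 and 0.77. LMNA, which encodes the nuclear lamins A and C, had 0.66 and 0.64. IER2, an immediate early gene, had 0.64 and 0.73, and PLXNB2, a semaphorin receptor, 0.63 and 0.71. Without the shared column the r of these genes in HepG2 were 0.63 to 0.76. Since live and fixed cells were pooled and PKP3 differed between them, this choice favours genes that were lower in fixed cells. Their log2 ratios of fixed to live were from -2.34 to -1.67 in HCT-116 and from -3.05 to -1.70 in HepG2, and the GC content of their reference transcripts was 60.6% to 63.1%. Among the junction genes in this comparison, DSP ranked 399 (lower r 0.27), JUP 509 (0.23), EPCAM 2803 (-0.14) and PERP 3120 (-0.18).

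Other junction genes are given from lists drawn up with earlier results known. Of 8 other desmosome and cornified envelope genes, only periplakin (PPL) and envoplakin (EVPL), linkers of the desmoplakin family, passed the floor. Both were over 2-fold lower in fixed HCT-116 cells, where 8.84% of all genes tested were: PPL went from 5.40 ± 5.21 to 1.61 ± 2.50 TPM (log2 ratio -1.75) and EVPL from 3.04 ± 3.29 to 0.590 ± 1.09 TPM (-2.36). In HepG2, where 9.76% of genes were that much lower, neither passed 2-fold (-0.69 and -0.93). Of 15 other adherens junction genes, 9 in HCT-116 and 10 in HepG2 passed the floor, with medians of 0.13 and 0.10. In HCT-116, 1 was lower and 1 higher by 2-fold, where 8.84% and 2.99% of all genes tested were, and in HepG2, 2 were lower and 1 higher, where 9.76% and 4.89% were. ARVCF, a catenin of the p120 family, was lower in HCT-116 (1.77 ± 2.04 to 0.361 ± 0.781 TPM, -2.30), and in HepG2, where it was under the floor, it had 1.39 ± 1.74 and 0.406 ± 0.592 TPM (-1.77). In HepG2 the P-cadherin gene CDH3 (30.3 ± 20.9 to 11.5 ± 11.9 TPM, -1.40) and NECTIN4 (8.30 ± 8.13 to 1.95 ± 2.99 TPM, -2.09) were lower, and NECTIN1 (0.989 ± 1.62 to 2.42 ± 3.23 TPM, 1.29) was higher. AFDN, listed as MLLT4, was 2-fold higher in HCT-116 (0.721 ± 0.925 to 1.47 ± 2.15 TPM, 1.03). The catenins that link E-cadherin to actin were alike in both treatments: CTNNB1 had 111.1 ± 33.4 and 129.2 ± 47.99 TPM in HCT-116 and 47.2 ± 18.2 and 57.8 ± 19.3 TPM in HepG2, with CTNNA1 at 63.9 ± 21.4 and 73.3 ± 25.7 TPM and at 85.4 ± 32.1 and 90.6 ± 35.9 TPM.

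Of 8 partners and relatives of EPCAM and PERP, 6 passed the floor in HCT-116, and none of them was past 2-fold there. SPINT2, a membrane-bound protease inhibitor, had log2 ratios of 0.20 (HCT-116) and -0.28 (HepG2). The tetraspanin CD9 had 0.55 and 0.14. The claudin CLDN7, which binds EPCAM, had -0.74 and -0.72. Of 10 transcription and splicing regulators that act on E-cadherin or the epithelial state, 5 in HCT-116 and 6 in HepG2 passed the floor. The highest, the splicing regulator ESRP1, had 25.5 ± 15.8 and 29.2 ± 19.2 TPM in HCT-116 and 35.4 ± 20.8 and 51.6 ± 25.3 TPM in HepG2. Past 2-fold were 1 of 5 in HCT-116, where 8.84% of all genes tested were lower and 2.99% higher, and 2 of 6 in HepG2, where 9.76% were lower and 4.89% higher. OVOL1, an epithelial repressor, was lower in HCT-116 (-1.06) and had a log2 ratio of -0.80 in HepG2. KLF4, an activator of CDH1, was lower in HepG2 (-1.31) but went the other way in HCT-116 (1.32 ± 2.07 to 2.30 ± 4.70 TPM, 0.80). SNAI2, a repressor of CDH1, had a higher mean in fixed HepG2 cells (1.69 ± 4.35 to 6.08 ± 16.2 TPM, 1.85) and was under the floor in HCT-116. Its HepG2 median was 0 TPM in both treatments. It was above 0 in 26.5% of live and 37.3% of fixed HepG2 cells, and its highest fixed cell had 103.4 TPM. GRHL2, an activator of CDH1, had 3.24 ± 4.81 TPM in live HCT-116 and 15.2 ± 8.32 TPM in live HepG2 cells, and its log2 ratios between treatments were 0.02 and 0.04.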

How the data were processed

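Smart-seq2 libraries of single live and methanol-fixed HCT-116 and HepG2 cells were used. Per the labels and the methods of the study, the authors quantified reads against human transcripts (GRCh38) with kallisto 0.46.0 and summed them to genes with tximport. The gene tables were deposited as TPM. The transcript tables were deposited under the name TPM, but their values behave as CPM with no correction for length. Of the labelled cells, 4 of HCT-116 and 8 of HepG2 had no column and were not analysed here.

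Groups were compared by the ratio of mean TPM over cells, and 2-fold was used as the limit because each group is 1 sample. The floor was a mean of 1 TPM over both groups. A gene listed at 0 in 1 group only counted as past 2-fold. The total of each cell was recovered from the spacing of its CPM values, to 0.1 M reads, and estimated reads of a gene are CPM times total reads. For PKP4, DSC2 and CDH1 the matched transcripts did not cover the gene (matched reads in under 98% of cells with the gene), so their reads for thinning were estimated from TPM. Transcripts were matched to genes through RefSeq identifiers without version. DSG2-AS1, antisense to DSG2, was under 1 TPM in all groups, and other overlapping genes were not listed. Steps were tested on simulated data. Members and lists were chosen with earlier results of these data known. The named genes were the 10 members, genes of the other junction lists over the floor (those past 2-fold in both lines first, of which there were none, then the highest), and the 5 genes most like PKP3. Genes past 2-fold in 1 line, CLDN7 and GRHL2 were added after their values were seen, as was leaving the shared column out of correlations. Alternatives were other scalings, log means, pairing or thinning on reads, other floors and leaving out doubtful columns. Some items are not reported here. Python 3.11.15 was used with numpy, pandas and scipy.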

Additional observations from a re-analysis of the deposited data

Results flagged for a closer look

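PKP2 and DSG2 had ratios of opposite sign in the 2 lines. For PKP2 the log2 ratio of fixed to live mean TPM was 0.34 (HCT-116) and -0.40 (HepG2). For DSG2 these ratios were 0.42 and -0.15. The difference between the lines was not tested, since each group is 1 sample. The signs of DSG2 held under every alternative tried (0.10 to 0.61 in HCT-116 and -0.49 to -0.11 in HepG2). PKP2 in HCT-116 was near no change, at 0.02, with ribosomal RNA left out. In HepG2 PKP2 was at 0.10 when cells were paired on total reads, so its opposite signs are not settled.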

How the results depend on the processing

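PKP3 was at least 2-fold lower in fixed cells of both lines under every alternative, and it was the only member so in each line. Its log2 ratio ranged from -4.98 to -3.17 in HCT-116 and from -4.61 to -3.14 in HepG2, and the lowest of each, -4.98 and -4.61, came from the mean of log2(TPM + 0.1), which weighs zeros more. The share of fixed HepG2 cells with PKP3 was 62.7% for TPM above 1 and 63.9% after thinning to 500000 reads. The 1 gene at least 2-fold higher in fixed HCT-116 cells, PKP4, went to 0 with ribosomal RNA left out, with median ratio scaling, with either log mean and in cells paired on total reads. Between live lines, the count of genes lower in HepG2 went from 1 to 0 with the mean of log2(TPM + 1), and the count higher from 2 to 1 with that mean and with ribosomal RNA left out. Between fixed lines, the count lower went from 3 to 1 with the mean of log2(TPM + 1), and the count higher from 1 to 2 with the mean of log2(TPM + 0.1). Thresholds of 1 estimated read were chosen after seeing the data. Of all recomputed values, 461 stayed close to the main value, 39 moved and no called value changed sign. A log2 ratio counted as moved only past 1.5-fold. Values counted as close thus include the change of sign of PKP2 in HepG2 (-0.40 to 0.10) and the fall of PKP4 in HCT-116 from 1.02 to 0.47. With a floor of 10 TPM the background shares were 4.48% lower and 0.543% higher in HCT-116 and 4.94% lower and 1.87% higher in HepG2. With no floor they were 20.6% and 13.6%, and 23.6% and 14.1%. Low counts limit PKP2, PKP4 and DSC2, and PKP3 in fixed cells. No paired analysis was possible because the numbers in the labels only name single cells, which are not replicates, and the results come from no test.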
